A study of Bos taurus with 15 samples.

Results

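The telomere-proximal 2 Mb of the bovine autosomes were examined for CpG methylation in liver and mammary gland DNA of Holstein cattle. On each of chromosomes 1 to 29, the end was taken as the largest position listed in any of the 15 deposited files, and every listed cytosine within 2000000 bp of it was a member. This gave 29 end regions among the 1271 windows of 2 Mb that tile the autosomes. The ends held 2054662 of the 26041697 distinct positions listed on the autosomes, or 7.89% of the positions on 2.31% of the length. Positions 10 to 20 Mb from the same ends, 3648922 in all, served as the interior for comparison.

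The study asked whether heat stress of the dam in late pregnancy changed the DNA methylation of her offspring. Dams were heat stressed (shade only) or cooled (shade, fans and soakers) over the last 6 to 7 weeks of gestation. Livers were taken at birth from bull calves of cooled dams (IUCL-B, n = 5) and of heat stressed dams (IUHT-B, n = 4). Mammary gland was taken from heifers of cooled dams (IUCL-H, n = 3) and of heat stressed dams (IUHT-H, n = 3) on day 21 of the first lactation, after a shared rearing. These numbers count the animals with data here. The paper names 4 IUCL-H heifers and 5 IUHT-B calves, and it excluded 1 of these calves because its reads did not align. Each animal with data gave 1 library. Tissue was confounded with sex, age and the kind of library that each tissue yielded, so these cannot be told apart. The tissue labels were not checked against marker genes, because gene positions on the build of the files were not used here.

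DNA methylation at CpG sites is laid down and copied by DNA methyltransferases, and most CpGs of mammalian genomes carry it. Dense clusters of CpGs, the CpG islands, are the usual exception and tend to be unmethylated at active promoters. The stretches next to telomeres are rich in GC bases, CpGs, genes and repeats, and recombine often. All bovine autosomes are acrocentric, with the centromere at the start of the coordinates, so the end with the largest coordinate is the end of the long arm. The telomeric repeat itself is not part of these positions. Reduced representation bisulfite sequencing (RRBS) reads fragments cut at restriction sites that contain a CpG and so samples GC-rich sequence most.

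The heifer libraries listed many positions thinly, and the calf libraries few positions deeply. In the ends, heifers listed 680200 to 993737 positions with a mean of 1.82 to 2.07 calls per position, and calves listed 23306 to 515423 positions with 6.33 to 57.3 calls per position. IUCL-B calves 4 and 5 stood apart from the other calves, with 258078 and 515423 end positions against 23306 to 75064 in the other 7. Only 121850 end positions were listed in every heifer, 223 in every calf and 150 in all 15 animals, so levels were pooled over all listed positions of a region. The calls in the ends numbered 909912 to 3261274 per animal, and the Wilson 95% interval of a level was narrow, as in IUHT-B calf 5 with the fewest calls (82.7 to 82.8%). Such intervals cover counting error at most, and they are too narrow even for that where reads are PCR copies of the same molecule.

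The ends were more densely covered than the interior. Over all files, 35.4 distinct positions were listed per kb of end against 12.6 per kb of interior. Windows of 100 bp with 10 or more listed positions, called dense here, numbered 1130 per Mb in the ends and 164 per Mb in the interior. Within an animal, positions per kb were 3.37 ± 0.24 times as many in the ends as in the interior in heifers (SD, n = 6) and 2.66 ± 0.22 times as many in calves (SD, n = 9). The calls per position did not share this difference, with ratios of end to interior of 0.997 to 1.04 in heifers and 0.851 to 1.10 in calves.

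The ends were more highly methylated than the interior in all 15 animals. Among IUCL-H, the pooled level (the percent of calls that were methylated) was 81.0% in the ends and 75.2% in the interior of heifer 1, 80.2% and 75.4% in heifer 2, and 78.0% and 72.4% in heifer 3. Among IUHT-H, the end and interior levels were 77.2% and 71.5% in heifer 1, 80.03% and 75.0% in heifer 2, and 79.4% and 72.6% in heifer 3. The lowest end level of any heifer was therefore above the highest interior level. In IUCL-B, end levels were 81.2%, 81.3%, 82.2%, 81.5% and 79.5% in calves 1 to 5, and interior levels were 76.9%, 77.8%, 78.3%, 77.7% and 74.2%. In IUHT-B, end levels were 81.1%, 82.8%, 82.3% and 82.7% in calves 2 to 5, and interior levels were 76.8%, 78.3%, 78.2% and 77.6%. End and interior levels did not overlap in calves either.

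**Figure D1:**
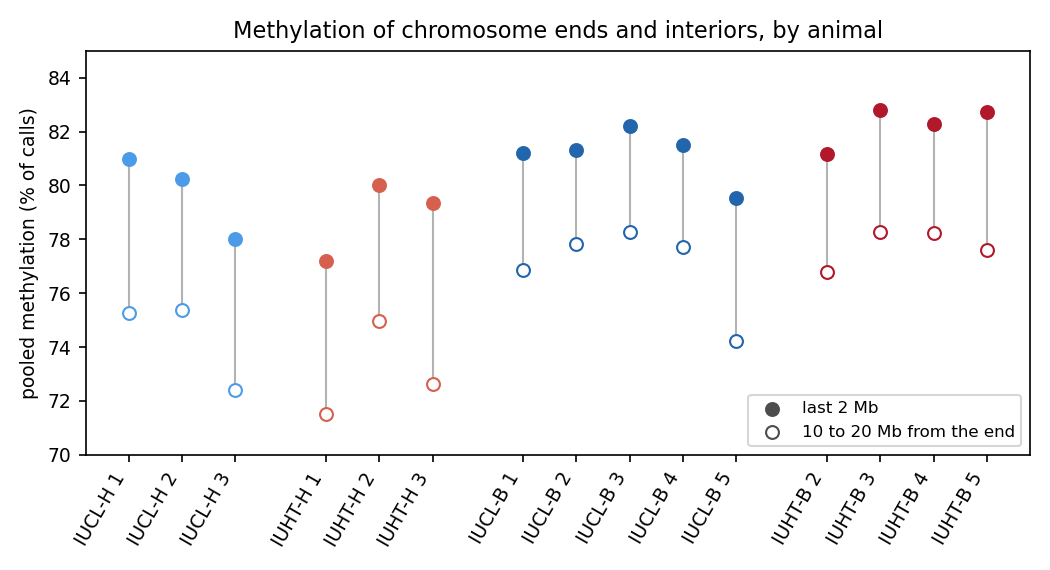
Pooled methylation in percent of calls (y axis) of the last 2 Mb (filled) and of the region 10 to 20 Mb from the end (open) in each of the 15 animals (x axis, by group and number). The filled point lies above the open one in every animal, by 3.51 to 6.73 percentage points.

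The difference between end and interior was 5.62 ± 0.65 percentage points in the mammary gland (SD, n = 6; two-sided exact permutation test over sign flips, adjusted p = 0.0312 with the Benjamini-Hochberg method over both tissues, which is also the smallest p that 6 heifers allow before adjustment). In the liver it was 4.32 ± 0.59 points (SD, n = 9; exact permutation test, adjusted p = 0.00781). Where each position counted alike, whatever its reads, the difference was 4.04 points in heifers and 4.45 points in calves. Over positions with at least 5 reads it was 11.0 points in heifers and 4.31 in calves. Over the 223 end positions listed in every calf, the end was higher in 8 of 9 calves, and IUCL-B calf 2 had 68.3% in the end and 70.4% in the interior.

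Methylation was high over the last 5 Mb and lower beyond it. In heifers, the mean level was 79.0 ± 1.5% over the last 0.5 Mb (SD, n = 6), 79.5 ± 1.4% at 1 to 2 Mb, 78.8 ± 1.4% at 2 to 5 Mb, 76.2 ± 1.4% at 5 to 10 Mb and 72.1 ± 2.1% at 20 to 30 Mb. In calves the levels over the same distances were 80.6 ± 1.3%, 82.0 ± 1.0%, 81.6 ± 1.3%, 78.8 ± 1.2% and 76.7 ± 2.0% (SD, n = 9). The decline did not continue at 30 to 40 Mb, where the mean was 73.5% in heifers and 77.4% in calves. These were near the 73.7% and 77.3% of the interior at 10 to 20 Mb. Within an animal, the level at 2 to 5 Mb differed from that at 1 to 2 Mb by -0.74 ± 0.22 points in heifers (lower in 6 of 6) and -0.34 ± 0.79 points in calves (lower in 7 of 9). The calves ranged from -1.63 points in IUCL-B calf 2 to 1.26 in IUHT-B calf 4, so single calves moved their mean. With an end of 1 Mb the difference from the interior was 5.40 points in heifers and 4.00 in calves, and with an end of 5 Mb it was 5.38 and 4.32. The interior chosen mattered more. Against the region from 2 to 10 Mb the ends were higher by only 1.86 points in heifers and 1.56 in calves, and against 20 to 30 Mb by 7.24 and 4.92. Position density fell over the same distance, from 3.73 ± 0.28 times the interior at 0.5 to 1 Mb to 2.16 ± 0.08 times at 2 to 5 Mb in heifers.

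**Figure D2:**
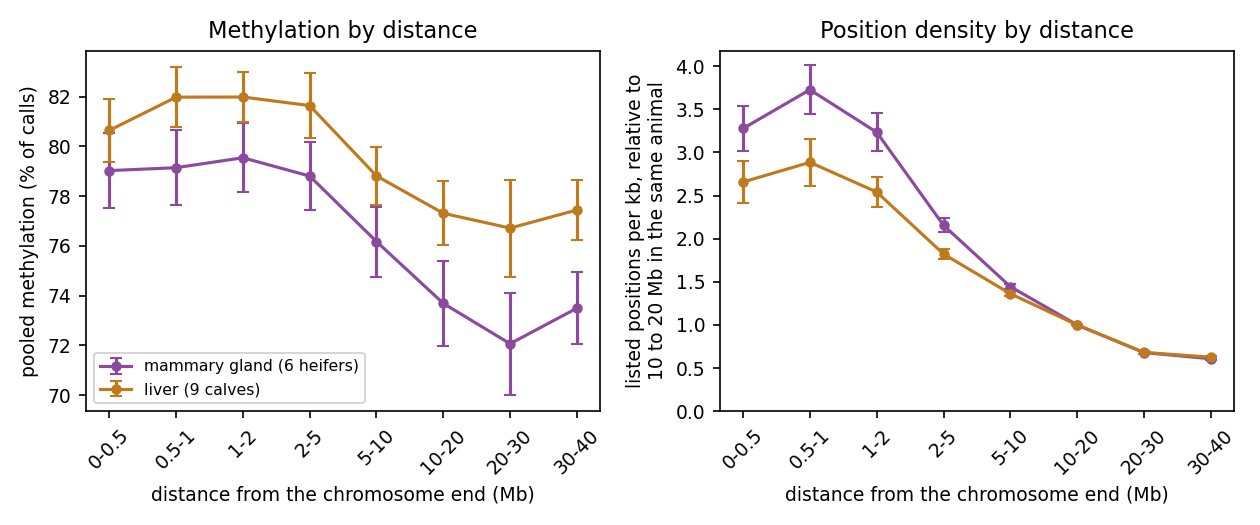
Left, pooled methylation in percent of calls; right, listed positions per kb divided by the same animal's value at 10 to 20 Mb; both against the distance from the chromosome end in Mb, as mean ± SD over 6 heifers (purple) and 9 calves (orange). Methylation is high over the first 5 Mb and declines toward 20 to 30 Mb. Position density is highest at 0.5 to 1 Mb and already falls within the first 5 Mb. Mean methylation is higher again at 30 to 40 Mb.

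Within the ends, methylation dipped in the outermost 0.2 Mb. In heifers, the mean level was 77.8 ± 1.4% in the last 100 kb and 76.2 ± 1.9% in the next 100 kb, against 81.8 ± 1.3% at 0.4 to 0.5 Mb (SD, n = 6). The heifer level at 0.7 to 0.8 Mb was also 77.8 ± 1.6%, so that of the last 100 kb was not particular to it. In calves the mean level was 76.4 ± 2.3% in the last 100 kb, 78.2 ± 3.4% in the next, and 83.8 ± 2.4% at 0.4 to 0.5 Mb (SD, n = 9). In calves the last 100 kb differed from the same animal's interior by -0.93 ± 3.13 points (range -4.57 to 5.18), and 3 of 9 calves were above it. IUCL-B calves 4 and 5, at 2.79 and 5.18, were the highest, and the mean was -1.69 points without calf 5 and -2.33 without both. In heifers the pooled level of the last 100 kb was 2.61 to 5.96 points above the interior. With each position counted alike the direction turned in all 6 heifers, at -0.93 ± 0.67 points (SD, n = 6), beside -0.47 ± 0.66 in calves (SD, n = 9). Position density was lower there too, at 2.39 times the interior in heifers and 2.20 times in calves, against 3.86 and 2.96 times at 0.4 to 0.5 Mb. The part of density in this dip was not tested.

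**Figure D3:**
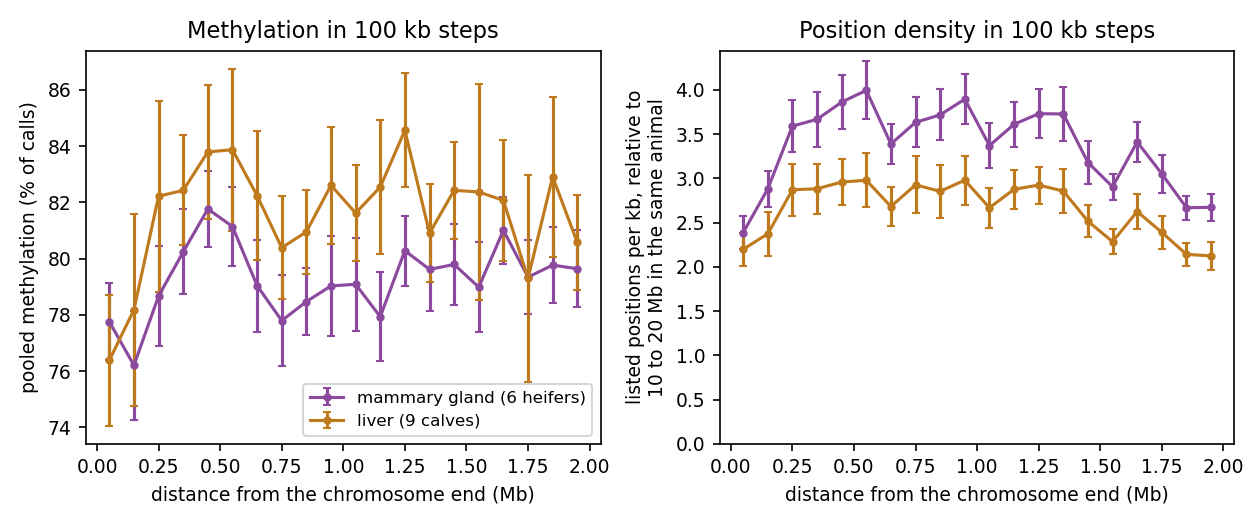
Left, pooled methylation in percent of calls; right, listed positions per kb divided by the same animal's value at 10 to 20 Mb; both in 20 steps of 100 kb from the chromosome end, as mean ± SD over 6 heifers (purple) and 9 calves (orange). Both quantities rise from the outermost 0.2 Mb to about 0.5 Mb in both tissues.

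The excess of the ends was largest in windows where many positions were listed. Listed positions depend on coverage, and the CpG density of the genome was not measured. In each 100 bp window, the positions listed in any file were counted, and positions were sorted into sparse (1 to 3 positions), middle (4 to 9) and dense (10 or more) windows. This sorting was tested after the levels by density had been seen. Dense windows held 47.2 ± 3.0% of the listed end positions of a heifer and 20.6 ± 2.9% of its interior positions (SD, n = 6). In calves they held 41.6 ± 2.3% and 16.98 ± 2.14% (SD, n = 9).

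In dense windows, the end levels of IUCL-H heifers 1 to 3 were 83.0%, 82.7% and 79.0%, and their interior levels were 73.7%, 75.0% and 66.1%. For IUHT-H heifers 1 to 3 the end levels were 78.8%, 81.8% and 80.02%, and the interior levels were 65.9%, 72.7% and 64.3%. The ends lay above the interior in all 6 heifers, by 11.3 ± 3.0 points (SD, n = 6; exact permutation test, p = 0.0312, adjusted p = 0.0625 over 14 density tests). In calves, dense end levels ranged from 78.1% in IUCL-B calf 5 to 84.1% in IUCL-B calf 3, and dense interior levels from 58.6% in IUCL-B calf 5 to 74.5% in IUCL-B calf 3. The ends lay above the interior in all 9 calves, by 13.0 ± 3.3 points (SD, n = 9; exact permutation test, adjusted p = 0.0182). The heifer value therefore missed the threshold after adjustment, although 0.0312 was the smallest p that 6 heifers allow.

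In sparse windows, ends and interior were close. Heifers had 74.5 ± 1.1% in the ends and 74.0 ± 1.1% in the interior, a difference of 0.49 ± 0.36 points (SD, n = 6; exact permutation test, adjusted p = 0.109). Calves had 80.8 ± 1.5% and 79.6 ± 1.3%, a difference of 1.17 ± 1.27 points (SD, n = 9; exact permutation test, adjusted p = 0.0547). Middle windows lay between, with differences of 2.65 ± 0.50 points in heifers and 3.23 ± 0.74 in calves. The dense difference exceeded the sparse difference in every animal, by 10.8 ± 3.3 points in heifers (exact permutation test, n = 6, adjusted p = 0.0625) and 11.8 ± 4.1 points in calves (exact permutation test, n = 9, adjusted p = 0.0182). Without IUCL-B calves 4 and 5, the dense difference in the liver was 11.6 points and the excess of dense over sparse 10.1 points, each with adjusted p = 0.0625 in the exact permutation test over the other 7 calves.

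The contrast was sharpest where positions were most crowded. In windows with 15 or more positions, the level was 80.3 ± 2.8% in the ends and 60.3 ± 7.4% in the interior of heifers (SD, n = 6), and 79.4 ± 3.2% and 53.9 ± 7.6% in calves (SD, n = 9). In the interior of heifers the mean level was 72.9% in windows of 1 position, 76.3% at 4 to 6, 75.0% at 10 to 14 and 60.3% at 15 or more. At 10 to 14 positions it was below that at 4 to 6 in 3 of 6 heifers, and at 15 or more in 6 of 6. In the ends of heifers the mean was 77.7% at 4 to 6 positions, 81.4% at 10 to 14 and 80.3% at 15 or more, and 4 of the 6 heifers were lower at 15 or more than at 10 to 14. In the ends of calves it was 81.7%, 82.7% and 79.4% over the same classes, and in their interior 79.5%, 75.0% and 53.9%. Weighting the interior's density classes as in the ends gave a difference between end and interior of 6.94 points in both tissues, against 5.62 and 4.32 unweighted.

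**Figure D4:**
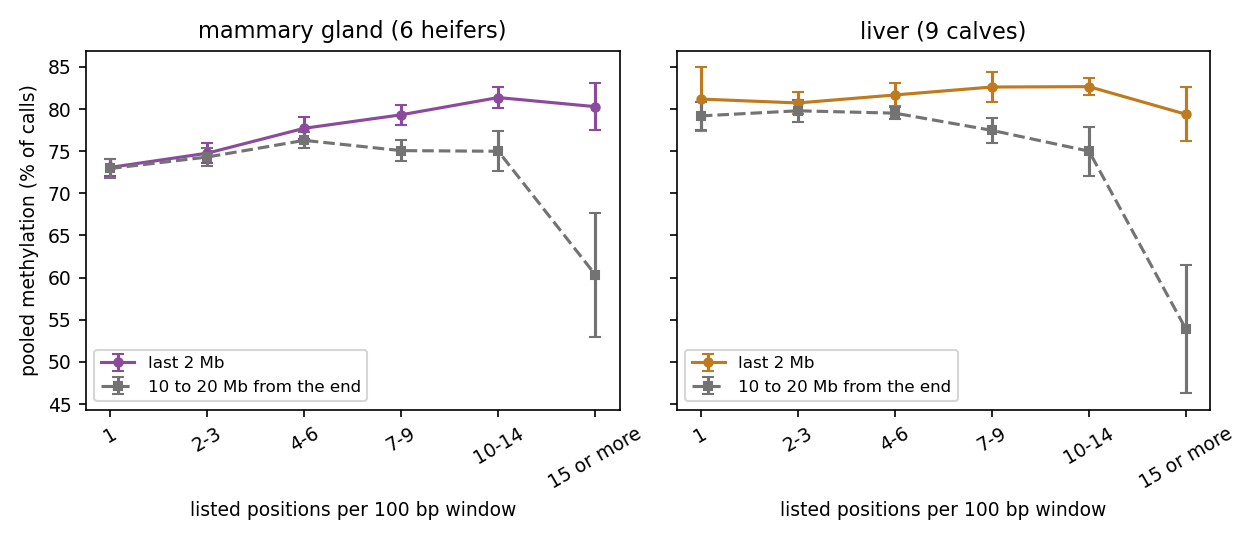
Pooled methylation in percent of calls (y axis) by the number of listed positions in the surrounding 100 bp window (x axis), as mean ± SD over 6 heifers (left) and 9 calves (right), for the last 2 Mb (solid) and 10 to 20 Mb from the end (dashed). The lines lie close in sparse windows, are apart from 7 to 9 positions on (79.3% against 75.1% in heifers) and are widest apart at 15 or more (80.3% against 60.3%).

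Unmethylated dense windows were nevertheless more frequent per Mb in the ends than in the interior, while methylated ones were more frequent still. Dense windows with at least 10 calls in an animal were called unmethylated at 10% or less and methylated at 80% or more. In heifers, 1.77 to 5.77% of such windows in the ends were unmethylated, against 6.86 to 19.7% in the interior. In calves the ranges were 6.95 to 9.83% and 14.8 to 25.3%. The share was lower in the ends in every animal. Per Mb, unmethylated dense windows were 2.22 ± 0.16 times as many in the ends as in the interior of heifers and methylated ones 9.22 ± 0.53 times as many (SD, n = 6). In calves the ratios were 3.37 ± 0.49 and 7.79 ± 0.68 (SD, n = 9). The lowest heifer share of unmethylated windows in the ends (1.77%) belonged to IUCL-H heifer 2 and the highest (5.77%) to IUHT-H heifer 3, and the treatment groups overlapped.

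Among single positions with at least 5 reads, the share of unmethylated positions was lower in the ends. Positions at 10% or less made up 2.22 ± 0.88% of the ends and 4.29 ± 1.40% of the interior in heifers (SD, n = 6), and positions at 90% or more made up 54.4 ± 2.7% and 47.6 ± 2.0%. In calves, 17.1 ± 0.6% and 20.6 ± 0.8% were at 10% or less, and 80.8 ± 2.2% and 76.3 ± 2.2% at 90% or more (SD, n = 9). Intermediate levels were therefore rare in calves, at 2.05 ± 1.78% of end positions. The calves ranged from 0.80 to 6.45%, with the highest share in IUCL-B calf 5, which listed the most positions of the calves. In heifers 43.3 ± 2.6% of end positions were intermediate. Calls per position also differed between the tissues, and reads of a calf position may be PCR copies. The part of these in this contrast was not tested.

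The levels of 100 kb bins spread less in the ends, which held more positions per bin. Among 100 kb bins of a heifer, the SD of the level was 6.67 ± 0.68 points in the ends and 9.92 ± 0.99 in the interior (SD over 6 heifers). Bins under 60% made up 1.52 ± 1.08% of end bins and 9.86 ± 4.05% of interior bins in heifers. In calves they made up 6.05 ± 3.54% and 13.3 ± 4.1% (SD, n = 9). A bin held a mean of 1407 positions in the ends and 417 in the interior of heifers, and 218 and 78.4 in calves, and the part of this in the spread was not tested. The median bin level was lower in the ends than in the interior in 2 of 9 calves, IUHT-B calf 3 (87.7% and 88.7%) and IUHT-B calf 5 (89.1% and 91.9%). Across the end bins of an animal, level and position density were weakly related, with Pearson's r of 0.201 to 0.309 in heifers (580 bins) and -0.005 to 0.172 in calves (569 to 580 bins). These bins share a library and its depth.

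The chromosomes differed in the size of the excess. In heifers the end was above the interior in every animal on 25 of 29 chromosomes and below it in every animal on 1, chromosome 28. On the other 3, chromosomes 12, 13 and 27, the heifers did not move together. In calves, 10 of 29 ends were above the interior in all 9 animals and none was below in all 9, while 27 of 29 had a mean difference above 0. The median difference over the 29 chromosomes was 5.00 points in heifers and 3.24 in calves. For comparison, the level at 10 to 20 Mb was above that at 20 to 30 Mb in every heifer on 19 chromosomes and in every calf on 5. The end was the most methylated 2 Mb window of its chromosome on 2 chromosomes in heifers (10 and 14) and on 3 in calves (7, 20 and 23). It was the densest window of its chromosome on 20 and 17 chromosomes.

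The end of chromosome 4 (chr4:118828939-120828938, UMD3.1) had the largest mean excess in both tissues, but in calves the order rested on IUHT-B calf 5, without which chromosome 7 had 9.02 and chromosome 4 had 8.99 points. Its levels were 79.5%, 78.8% and 76.2% in IUCL-H heifers 1 to 3 and 76.7%, 78.9% and 78.8% in IUHT-H heifers 1 to 3. The interior levels of the same heifers were 67.1%, 70.7%, 63.7%, 63.3%, 66.2% and 63.3%. The difference was 12.4 ± 2.4 points in heifers (SD, n = 6) and 10.9 ± 7.3 points in calves (SD, n = 9), where it ranged from 0.08 points in IUCL-B calf 2 to 26.5 points in IUHT-B calf 5. The excess on this chromosome came with a low interior: dense windows were at 79.9 ± 1.7% in the end and 45.6 ± 6.5% in the interior of heifers, and at 84.3 ± 5.3% and 46.6 ± 8.1% in calves.

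The other large differences in heifers were on chromosomes 7 and 25. Chromosome 7 (chr7:110638522-112638521) had 83.5 ± 1.2% in the end and 73.7 ± 1.5% in the interior, a difference of 9.81 ± 1.38 points (SD, n = 6). Chromosome 25 (chr25:40904055-42904054) had 79.6 ± 1.6% and 70.3 ± 3.9%, a difference of 9.31 ± 2.56 points (SD, n = 6). In calves, chromosome 27 followed chromosome 4 with 8.78 ± 5.87 points (80.2 ± 3.8% in the end, SD, n = 9). The difference on chromosome 27 was 2.50 to 5.47 points in IUCL-B and 10.1 to 20.4 points in IUHT-B. Its mean was 7.32 points without IUHT-B calf 5. Chromosome 7 had 7.45 ± 7.74 points, with IUHT-B calf 5 at -5.10. On chromosome 7, IUHT-B calf 3 was at 22.95 points, and without it the mean was 5.51. IUHT-B calf 5 listed the fewest positions of all animals.

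Chromosome 28 (chr28:44311485-46311484) was the exception in heifers. Its end levels were 77.6%, 77.3% and 72.4% in IUCL-H and 73.6%, 76.7% and 75.5% in IUHT-H, and its interior levels were 78.8%, 79.1%, 76.9%, 76.5%, 79.1% and 77.1% in the same order. All 6 ends were lower, by 1.21 to 4.47 points. This end was nearly as sparse as its interior, with 1.18 times as many positions per kb, and its dense windows were at 71.5 ± 5.0% against 71.7 ± 4.6% (SD, n = 6). Chromosomes 12 and 5 had the next lowest differences in heifers, at 0.75 ± 1.91 and 1.17 ± 1.19 points. Without IUHT-H heifer 3 these were 0.17 and 0.72 points, and chromosome 12 had 0.44 without IUCL-H heifer 2 and 1.19 without IUHT-H heifer 1. The end of chromosome 12 was nevertheless the densest of all relative to its interior, at 9.47 times. Its dense windows were 10.9 ± 3.3 points higher in the end.

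The lowest differences in calves were on chromosomes 11, 16 and 1. Chromosome 11 (chr11:105310500-107310499) was at 77.4 ± 2.1% in the end and 79.9 ± 2.1% in the interior, a difference of -2.50 ± 3.40 points (SD, n = 9). Chromosome 16 had -1.39 ± 8.23 points, and without IUHT-B calf 5, which had 63.9% in the end and 86.8% in the interior, the mean turned to 1.30 ± 1.73 points (SD, n = 8). Chromosome 1 had 0.64 ± 3.83 points (-0.13 without IUHT-B calf 5, 0.14 without IUCL-B calf 4 and 1.59 without IUHT-B calf 3), and its end was sparser than its interior, at 0.568 times the positions per kb.

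Over the 29 chromosomes, the mean difference between end and interior in heifers and that in calves had a Pearson's r of 0.66. For dense windows alone, r was 0.88. Both values describe the chromosomes of 1 genome, and the second also shares the density classes. The size of the difference had r of 0.15 in heifers and -0.02 in calves with the density ratio of end to interior, and r of 0.22 and -0.02 with chromosome length. With the interior level, which is itself a term of the difference, r was -0.56 and -0.51.

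**Figure D5:**
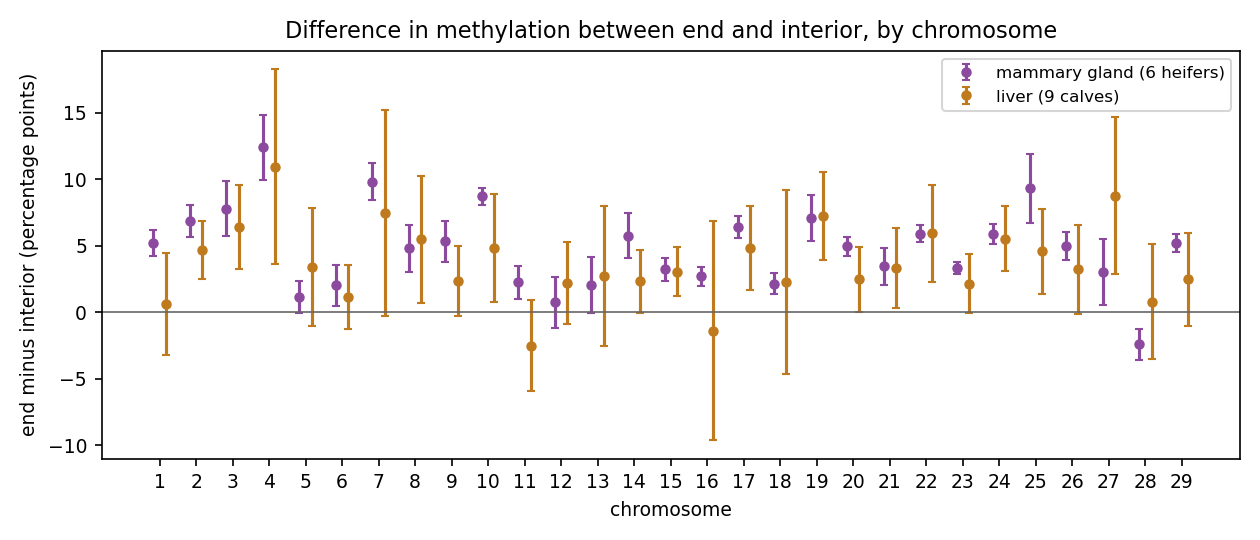
Difference in pooled methylation between the last 2 Mb and 10 to 20 Mb from the end, in percentage points (y axis), by chromosome (x axis), as mean ± SD over 6 heifers (purple) and 9 calves (orange). Chromosome 4 has the highest mean in both tissues (in calves only with IUHT-B calf 5 included), chromosome 28 is below 0 in heifers, and the calves' SDs are wider.

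The question of the study was whether maternal heat stress shifted methylation, and no shift in the level of the ends passed the tests. Single sites were tested apart and are given below. In the mammary gland, the end level was 78.9 ± 1.5% in IUHT-H and 79.7 ± 1.5% in IUCL-H (SD, n = 3 each; exact permutation test, p = 0.5, adjusted p = 0.5 over 4 treatment tests, where 3 against 3 cannot go below 0.1). The difference of -0.89 points was -0.05 without IUHT-H heifer 1, -0.27 without IUCL-H heifer 1, -1.47 without IUHT-H heifer 2 and -1.75 without IUCL-H heifer 3. In the liver it was 82.2 ± 0.8% in IUHT-B (SD, n = 4) and 81.2 ± 1.0% in IUCL-B (SD, n = 5), a difference of 1.09 points (exact permutation test, p = 0.0952, adjusted p = 0.381). It was 0.68 points without IUCL-B calf 5, 0.66 without IUCL-B calves 4 and 5, and -2.95 over the 223 end positions listed in every calf. The last value was -1.0 without IUCL-B calf 4, -1.36 without IUCL-B calf 5, -0.89 without IUHT-B calf 3, -4.91 without IUCL-B calf 2 and 1.77 without IUCL-B calves 4 and 5. IUHT-B calf 2, at 81.1%, lay below 4 of the 5 IUCL-B calves, so the groups overlapped. The liver groups also differed in library breadth, with 60721 to 515423 end positions listed in IUCL-B and 23306 to 71680 in IUHT-B. The part of breadth in the liver difference was not tested. The difference between end and interior was 5.83 ± 0.84 points in IUHT-H and 5.40 ± 0.47 in IUCL-H (exact permutation test, n = 3 each, p = 0.5), and 4.51 ± 0.46 points in IUHT-B and 4.17 ± 0.70 in IUCL-B (exact permutation test, n = 4 and 5, p = 0.413). It was 5.29 points in IUCL-B calf 5, 5.13 in IUHT-B calf 5 and 3.51 to 4.52 in the other calves. With each position counted alike, IUHT was the lower in both tissues. Without IUHT-H heifer 3, IUHT-H was the lower. The change of end level with treatment in the liver minus that in the mammary gland was 1.98 points (exact permutation within tissues, n = 9 and 6, p = 0.159, adjusted p = 0.410 over 4 such tests added after the data were seen).

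In dense windows of the ends, no treatment test passed the threshold, which 3 heifers against 3 cannot reach. IUHT-H had 80.2 ± 1.5% and IUCL-H 81.6 ± 2.2% (exact permutation test, n = 3 each, p = 0.4). IUHT-B had 81.9 ± 0.9% and IUCL-B 81.2 ± 2.3% (exact permutation test, n = 4 and 5, p = 0.611). The liver level was 78.1% in IUCL-B calf 5, 80.05 to 84.1% in the other IUCL-B calves and 80.6 to 82.6% in IUHT-B. The higher mean of IUHT-B therefore rested on IUCL-B calf 5, without which IUHT-B was not the higher. In the mammary gland IUHT-H stayed the lower without any 1 heifer, but the size of the difference moved and the groups overlapped. The excess of dense end over dense interior differed between IUHT and IUCL by 2.54 points in the mammary gland (exact permutation test, n = 3 each, p = 0.5) and -0.95 points in the liver (exact permutation test, n = 4 and 5, p = 0.730). All 4 treatment tests had adjusted p of 0.56 or more over the 14 density tests. The dense excess was 19.5 points in IUCL-B calf 5, 16.5 in calf 4 and 9.66 to 11.3 in the other IUCL-B calves, against 11.3 to 14.9 in IUHT-B. Its direction in the liver therefore depended on IUCL-B calf 5. In heifers 1 to 3 it was 9.29, 7.76 and 12.9 points in IUCL-H and 12.8, 9.11 and 15.7 in IUHT-H.

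By chromosome, none of the 29 end windows was called between treatments in either tissue (limma on the log2 ratio of methylated to unmethylated calls, adjusted p of 0.05 or less over all windows), where 0.0% of 1270 windows were called in the mammary gland and 0.0% of 1268 in the liver. At an unadjusted p under 0.05, 0 of 29 ends passed in the mammary gland, beside 0.472% of all windows, and 1 of 29 in the liver, beside 7.81%. That end was on chromosome 27, the only end whose liver groups did not overlap (2.76% of all windows did not overlap), and is named here after its values were seen. Its levels were 75.1%, 76.0%, 78.9%, 80.03% and 79.4% in IUCL-B calves 1 to 5 and 80.9%, 80.4%, 84.3% and 87.3% in IUHT-B calves 2 to 5. The IUHT-B mean was higher by 5.34 points (limma, adjusted p = 0.592). In the mammary gland no end separated the groups, beside 1.42% of all windows.

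The sign of the difference was counted over the ends as a description. IUHT-H had the higher mean in 1 of 29 ends, that of chromosome 27, while 28.7% of all windows were higher in IUHT-H. This count moved with single heifers: it was 16 of 29 without IUHT-H heifer 1 (beside 54.6% of all windows), 9 without IUCL-H heifer 1 (beside 46.5%) and 4 without IUCL-H heifer 2 (beside 50.3%). IUHT-B had the higher mean in 20 of 29 ends, beside 65.5% of all windows, and in 19 to 21 without any 1 calf. The median difference over the ends was -0.84 points in the mammary gland and 1.59 in the liver, and over all windows -0.635 and 1.501. Without IUHT-H heifer 1 the mammary median over the ends was 0.12 points. The ends share each animal's library, so these signs are not independent.

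Among 100 kb bins, none of 580 end bins in the mammary gland and none of 567 in the liver was called (limma), where 0.0% of 25121 bins and 0.0% of 14151 bins were called overall. Without IUHT-B calf 2, 2 of 567 liver end bins were called (0.353%), beside 1.77% of all bins. At an unadjusted p under 0.05, 1 of 580 end bins passed in the mammary gland, beside 3.01% of all bins, and 28 of 567 in the liver, beside 11.3%. The mammary bin lay 1.5 to 1.6 Mb from the end of chromosome 7 and is named here after its values were seen. Its levels were 79.0%, 75.8% and 69.66% in IUCL-H heifers 1 to 3 and 53.6%, 69.66% and 64.3% in IUHT-H heifers 1 to 3, a mean difference of -12.3 points (limma, adjusted p = 1.00). Its groups overlapped, since IUHT-H heifer 2 was level with IUCL-H heifer 3 to that precision.

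Few end sites were read deeply enough to be tested singly for differentially methylated cytosines (DMCs). A DMC had more than 10 reads in every animal of the tissue, a difference of at least 15 points between pooled reads and a q-value of 0.2 or less in a logistic regression without overdispersion. In the mammary gland 11 of 543 tested end sites (2.03%) were DMCs, beside 1.54% of all 18486 tested sites, with 3 hypermethylated and 8 hypomethylated in IUHT-H. In the liver 6 of 46 tested end sites were DMCs, 1 hyper- and 5 hypomethylated in IUHT-B, beside 33.1% of all 900 tested sites. In the interior the shares were 1.99% and 43.1%. With overdispersion in the model, 0 end sites were called in both tissues, beside 0.0% of all mammary and 6.33% of all liver sites. The edgeR test called 0 end sites in both, beside 0.0% of all mammary and 0.222% of all liver sites, and at an unadjusted p under 0.05 it had 35 of 543 mammary end sites (6.45%), beside 4.5% of all sites, and 5 of 46 liver end sites (10.9%), beside 9.11%. Without IUHT-H heifer 3, 4 mammary end sites were DMCs (0.675%, beside 1.39% of all sites), and without IUCL-H heifer 2, 7 were (1.23%, beside 1.44%). In the liver, 12, 10 and 13 end sites were DMCs without IUHT-B calves 2, 4 and 5 (23.5%, 21.3% and 16.5%), beside 35.4%, 36.8% and 34.7% of all sites. The tested mammary sites clustered: 227 of the 543 and 7 of the 11 DMCs lay in the end of chromosome 11. The tested liver sites clustered too. Of the 46, 21 lay in the end of chromosome 11 (3 DMCs) and 14 in that of chromosome 4 (1 DMC). Both of the 2 tested in the end of chromosome 27 were DMCs. The liver share therefore describes few ends. Sites read more than 10 times in all 6 heifers are unusual in libraries that averaged about 2 calls per position, and the part of this selection in the DMCs was not tested.

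Of the 11 mammary DMCs, 5 had groups that did not overlap, beside 60.4% of all mammary DMCs. Hypermethylated in IUHT-H was chr11:106618050, 692449 bp from the end, at 31.2%, 71.4% and 57.1% in IUCL-H heifers 1 to 3 and 72.7%, 83.3% and 92.9% in IUHT-H heifers 1 to 3. The other hypermethylated site, chr27:43561428, was at 63.6%, 58.5% and 66.7% in IUCL-H and 78.6%, 81.8% and 81.8% in IUHT-H. Hypomethylated was chr27:43572518, which had a mean of 69.0 ± 9.2% in IUHT-H and 91.6 ± 3.1% in IUCL-H (SD, n = 3 each). The site chr11:106224831 had 66.3 ± 5.5% and 84.7 ± 4.9%. The site chr11:107304179 lay 6320 bp from the end and had 10.9 ± 6.3% in IUHT-H and 29.1 ± 12.2% in IUCL-H. It was read 19 to 93 times in a heifer. With overdispersion in the model, all 5 had a q-value of 1.00. Among the 6 liver DMCs of the ends, 0 had groups without overlap, beside 7.38% of all liver DMCs.

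The ends were less methylated in the mammary gland of heifers than in the liver of calves. The mean was 79.3 ± 1.4% (SD, n = 6) against 81.6 ± 1.0% (SD, n = 9), a difference of -2.33 points (exact permutation test, adjusted p = 0.00280 over 2 tissue tests). By 2 Mb window, the median tissue difference was -2.19 points over the 29 ends and -4.53 points over all windows. The excess over the interior was larger in heifers, by 1.29 points (exact permutation test, n = 6 and 9, adjusted p = 0.00280). Both differences turned with the counting. Over positions with at least 5 reads the end level was 1.05 points higher in the mammary gland, and over the 150 end positions listed in all 15 animals it was 7.98 points higher. With each position counted alike, the excess was 0.41 points smaller in heifers, and with the interior weighted to the density classes of the ends it differed by -0.0006 points. Dense end windows were at 80.9 ± 1.9% in heifers and 81.5 ± 1.7% in calves (exact permutation test, n = 6 and 9, p = 0.528).

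Of the 29 end windows, 7 were called lower in the mammary gland (limma), which was near the background, where 24.6% of 1268 windows were. Without IUCL-H heifer 3 or without IUHT-H heifer 1, 3 ends were called (10.3%), beside 11.4% and 11.0% of all windows, and with each position counted alike 21 (72.4%), beside 62.5%. The 7 were the ends of chromosomes 4, 5, 7, 15, 20, 26 and 27. In 4 of the 29 ends (13.8%), those of chromosomes 5, 7, 26 and 27, no heifer overlapped with any calf, beside 11.4% of all windows. The largest difference was on chromosome 27 (chr27:43406595-45406594), at 71.1 ± 1.9% in heifers (68.5 to 73.0%) and 80.2 ± 3.8% in calves (75.1 to 87.3%), or -9.10 points (limma, adjusted p = 0.00678). In dense windows of this end the levels were 78.5 ± 2.6% and 83.7 ± 5.2%. Among 100 kb bins, none of 567 end bins was called between tissues, where 0.0495% of 14148 bins were, and 68 of 567 passed an unadjusted p under 0.05, beside 15.5% of all bins. With each position counted alike, 107 end bins were called (18.9%), beside 11.7% of all bins.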

How the data were processed

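The authors digested DNA with MspI and TaqαI, kept fragments under 300 bp, converted them with bisulfite and sequenced them. Per the labels' processing notes, reads were trimmed with Trim Galore 0.4.4 and mapped to UMD3.1 with Bismark 0.17.0. The authors deposited, for every cytosine position read in an animal, the count of methylated and of unmethylated calls and the percent methylated. No further coverage minimum was set, and the strands of a CpG were listed apart. Positions were placed by their distance from the largest listed position of each of chromosomes 1 to 29, and calls were pooled by region.

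Regional levels were tested with two-sided exact permutation tests and Benjamini-Hochberg adjustment. Windows of 2 Mb with at least 20 positions and bins of 100 kb with at least 5 positions in every animal were fitted with limma 3.58.1 on the log2 ratio of the counts with 0.5 added to each, over all windows, and sites by logistic regression or edgeR 4.0.16. The models were tested on simulated data. Tests by density class, the tissue by treatment tests, and the density and DMC results without IUCL-B calves 4 and 5 were added after the data were seen. Alternatives changed the weighting, read minimum, coverage cap, end, interior, density weights, shared positions and animals. The ends and their comparisons were chosen with earlier results of these data known. The ends named are the 3 highest and 3 lowest in each tissue, and the sites named are the DMCs with the largest differences and no overlap of the groups, at least 1 kb apart. No gene is named and no sequence shown, because no genome or gene annotation of UMD3.1 was used here. Depth per animal was 10484911 to 38221835 calls in calves and 13949097 to 20240625 in heifers.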

Additional observations from a re-analysis of the deposited data

Results flagged for a closer look

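In dense windows, the end exceeded the interior by 14.9 points in IUHT-B calf 2, farther from the other IUHT-B calves (11.3 to 11.9 points) than Dixon's 95% limit allows. In the same calf the ratio of position density between end and interior was 2.45, below the 2.69 to 2.71 of the other IUHT-B calves by the same criterion. At this limit chance gives about 1 such value in 20 comparisons. Here 16 comparisons of an animal with its group were made (8 measures in 2 groups), so such a value among them would not be unusual. Both flagged values come from the same calf.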

How the results depend on the processing

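The ends were more methylated than the interior, in both tissues, under every weighting, read minimum, coverage cap, end, interior, density weighting and set of shared positions run, by 1.86 to 11.3 points in heifers and 1.56 to 7.96 in calves as tissue means, and by 5.39 to 5.77 and 4.20 to 4.42 points without 1 animal, although 5 heifers cannot give an exact permutation p below 0.0625. IUCL-B calf 2 was the exception among single animals, at -2.09 points over positions listed in every calf and -5.91 over those listed in all 15 animals. The treatment and tissue differences moved, and the cause was not tested. With each position counted alike, the IUHT minus IUCL difference in end minus interior was -0.0627 points in the mammary gland and -0.0406 in the liver, mammary gland minus liver in the same measure was -0.409, and the sparse excess in heifers was -0.161. With the interior at 2 to 10 Mb these 3 differences were -0.0383, -0.0658 and 0.294, and at 20 to 30 Mb the liver value was -0.861. With the density classes of the ends they were 1.44, -0.153 and -0.000636. With at least 5 reads, the mammary treatment value was 2.44 and the tissue difference in end level 1.05. With positions listed in every animal of a tissue, the mammary treatment value was 2.05 and the liver end level differed by -2.95 between treatments. With those listed in all 15 animals these were 2.41 and -4.71 (-2.51 without IUCL-B calf 4, -2.75 without calf 5, 0.83 without both and -7.54 without IUCL-B calf 2), and mammary gland minus liver was 7.98 in end level and 3.32 in end minus interior. With a coverage cap the last was 0.475. Without 1 heifer the mammary treatment value was -0.0188 (without IUHT-H heifer 3) to 0.810. Without IUCL-B calves 4 and 5, an alternative chosen for these tests after the data were seen, the liver differences were 11.6 points in dense and 3.21 in middle windows and 10.1 for dense minus sparse.

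With each position counted alike, 21 end windows (72.4%, beside 62.5% of all) and 107 end bins (18.9%, beside 11.7%) were called between tissues. Without 1 animal, 3 to 10 end windows were called between tissues (10.3 to 34.5%, beside 11.0 to 41.2%) and 0 to 2 liver end bins between treatments (up to 0.353%, beside up to 1.77%). DMCs in mammary ends numbered 2 at 25 points or more (0.368%, beside 0.184% of all sites), 19 with more than 5 reads (1.67%, beside 1.3%), 4 with more than 20 reads (1.07%, beside 1.19%), 0 with a coverage cap (beside 0.31%), 0 with overdispersion (beside 0.0%), 0 with edgeR (beside 0.0%) and 4 to 15 without 1 heifer (0.675 to 2.67%, beside 1.39 to 2.4%). In liver ends they numbered 3 at 25 points or more (6.52%, beside 17.4%), 10 with more than 5 reads (16.9%, beside 36.2%), 5 with more than 20 reads (13.5%, beside 27.7%), 1 of 2 tested with the cap (beside 38% of all), 0 with overdispersion (beside 6.33%), 0 with edgeR (beside 0.222%) and 5 to 13 without 1 calf (10.4 to 23.5%, beside 32.6 to 36.8%).

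Calves of the 2 groups share numbers but are different calves. Same-number deviations had r of -0.0259 to 0.0137, which cannot show whether the numbers mark a block. With the replicate block the liver treatment difference was 1.10 points in end level and 0.386 in end minus interior (exact permutation, p = 0.25 each), and 0 end windows and 0 end bins were called, beside 0.0% of all windows and 0.0% of all bins.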
